A study of Mus musculus with 2 samples.

Results

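The alpha beta T cells of inflamed mouse back skin were described in 2 droplet single-cell RNA libraries, 1 from Chrna5 knockout (KO) mice and 1 from wild-type (WT) mice. A barcode was taken as an alpha beta T cell if it held at least 1000 UMIs (unique molecular identifiers, each counting 1 captured RNA molecule) and 200 genes, and at most 10% mitochondrial UMIs. It also had to hold at least 2 UMIs of the CD3 genes Cd3e, Cd3d and Cd3g in sum, at least 1 UMI of Trac and 0 UMIs of Trdc, with Krt5 and Krt14 under 0.5% of its UMIs. The rule gave 52 members among 9605 kept barcodes of the KO library and 29 among 11626 of the WT library, which is 81 of 21231 in all. The members were therefore selected on these genes, whose values describe the selection and test nothing.

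The deleted gene, Chrna5 (chr9:54980880-55007779, mm10), codes for a nicotinic acetylcholine receptor subunit, alpha 5. The labels name no tissue-restricted deletion. Per the labels, the KO line had been backcrossed to C57BL/6N for more than 10 generations, and both groups were female mice aged 6 to 8 weeks. Elsewhere the labels name C57BL/6J. Both groups received 62.5 mg of 5% imiquimod (IMQ) cream on the shaved back on 6 days and were killed on day 7, so the KO and WT mice shared the treatment and differed in genotype. IMQ is a Toll-like receptor agonist used to model psoriasis. Skin was digested with collagenase and SytoxBlue-negative cells were sorted. Experimental groups had 5 mice, per the labels, but the number of mice behind a library is not stated. A vaseline control group is not analysed here. Each genotype is 1 library, so no difference below has a replicate check or a test, and every interval is an exact 95% interval that covers counting error only.

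Alpha beta T cells recognise peptides bound to MHC molecules through a receptor made of an alpha chain (constant region Trac) and a beta chain (Trbc1 or Trbc2), held at the surface by the CD3 proteins. Helper cells carry the coreceptor CD4 and cytotoxic cells carry CD8. Regulatory cells depend on the transcription factor Foxp3, and other cells secrete IL-17 or interferon gamma. Mouse skin also holds gamma delta T cells, which use the delta chain constant region Trdc, and these are a main source of IL-17 in the IMQ model. In the GENCODE annotation of GRCm38 (mm10), Trac lies at chr14:54220521-54224206 and Trdc at chr14:54142851-54148868, both on the plus strand and within the same receptor locus. Trbc1 and Trbc2 lie side by side on chromosome 6, at chr6:41538218-41539881 and chr6:41546730-41548352.

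Alpha beta T cells made up a larger share of the KO library than of the WT library. They were 0.541% of kept barcodes in KO (0.405 to 0.709) and 0.249% in WT (0.167 to 0.358), a ratio of 2.17 (1.35 to 3.55). All barcodes with 2 or more CD3 UMIs, alpha beta or not, numbered 330 in KO (3.44%) and 142 in WT (1.22%), a ratio of 2.81 (2.30 to 3.45). Gamma delta T cells, taken by the mirror rule of at least 1 Trdc UMI and 0 Trac UMIs, numbered 203 in KO (2.11%) and 62 in WT (0.533%), a ratio of 3.96 (2.97 to 5.36). Among CD3 barcodes, the alpha beta share was 15.8% in KO (11.998 to 20.1) and 20.4% in WT (14.1 to 28.0), with overlapping intervals. The gamma delta share of CD3 barcodes was 61.5% in KO (56.0 to 66.8) and 43.7% in WT (35.4 to 52.2). The mix of other cells in the denominators differed. A gate for keratinocytes took 866 of the kept barcodes in KO and 3215 in WT, and a gate for fibroblasts took 2523 in KO and 2463 in WT. Every share of kept barcodes depends on that mix, and its part in the ratios was not tested. Shares of a digested and sorted skin do not give cell numbers in the tissue.

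**Figure D1:**
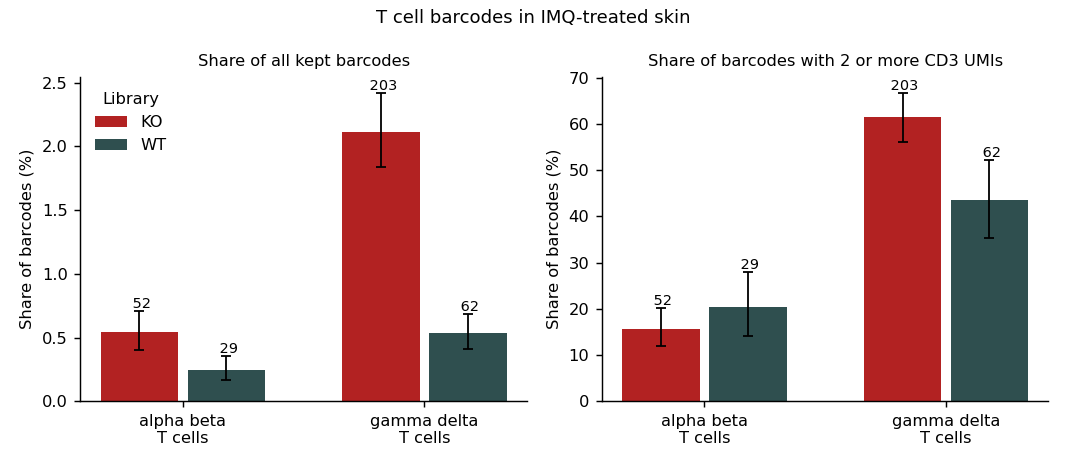
Shares of barcodes (y axis, percent) that passed the alpha beta and gamma delta T cell rules in the KO and WT libraries, of all kept barcodes (left panel) and of barcodes with 2 or more CD3 UMIs (right panel). Bars carry exact 95% intervals of counting error, and the number of cells stands above each bar. The KO bar is the higher one for both cell types on the left, while on the right the alpha beta intervals overlap.

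The share rests on few UMIs per cell. Among the members, 12 in KO and 8 in WT held exactly 2 CD3 UMIs, and 17 in KO and 12 in WT held exactly 1 Trac UMI. Just outside the rule, 23 KO and 14 WT barcodes had 1 CD3 UMI and otherwise passed, and 47 KO and 29 WT barcodes had 0 Trac UMIs and otherwise passed. A further 28 KO and 18 WT CD3 barcodes held both Trac and Trdc, of which 2 in KO and 1 in WT had a single Trdc UMI. The highest keratin share of a member was 0.325% in KO and 0.441% in WT, and 1 WT barcode with 1.65% keratin was left out. When the rule asked for 2 Trac UMIs, the share was 0.364% in KO and 0.146% in WT. When every barcode was first thinned to 1000 UMIs, only 1 KO and 2 WT barcodes passed, and the ratio turned to 0.605.

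The members were captured at similar depth in both libraries. A KO member held 2618 UMIs at the lowest, 4609.5 at the median and 31995 at the highest. In WT these values were 2417, 4711 and 22679. The median number of genes was 1688.5 in KO and 1723 in WT, and the members summed to 303496 UMIs in KO and 179915 in WT. Chrna5 itself had 6 UMIs over the kept KO barcodes and 12 over the kept WT barcodes, with 0 in the members of either library, so the members cannot check the genotype. The sources used here do not say which part of Chrna5 was deleted. The libraries shared 49 deposited barcode sequences, none of them a member.

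The T cell label was checked on genes outside the rule. Cd28, the costimulatory receptor of conventional T cells, was seen in 35 of 52 KO members (67.3%) and 22 of 29 WT members (75.9%), against 5.91% of KO and 11.3% of WT gamma delta T cells. Trbc1 or Trbc2 was seen in 44 KO and 21 WT members. Beta chain transcripts were not particular to these cells, since 77.3% of KO and 74.2% of WT gamma delta T cells also held them, and so did 42.4% of KO and 32.0% of WT barcodes of a keratinocyte gate. That gate was deeper, with a median of 19034 UMIs in KO and 8650 in WT. After thinning to 1000 UMIs per cell, Trbc1 or Trbc2 was seen in 26 of 52 KO and 11 of 29 WT members but in 5.08% of KO and 3.67% of WT keratinocyte-gate barcodes. The gamma chain constant genes Tcrg-C1, Tcrg-C2 and Tcrg-C4 were seen in 6 KO members and 1 WT member. Both Ncr1 and Klrb1c, which mark natural killer cells, were at 0 in all members. The other natural killer genes of the same marker list, Tyrobp and Fcer1g, were not absent. Together they had 117 UMIs in 21 KO members and 68 UMIs in 9 WT members, as described below.

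The 24 listed genes of the receptor complex and its proximal signalling had summed levels of 4649 CPM (counts per 1000000 UMIs of the members) in KO and 4369 CPM in WT. Trac had 151 UMIs in KO and 79 in WT (498 and 439 CPM). Cd3d had 116 UMIs in KO and 62 in WT, and Cd3g had 88 in KO and 55 in WT, with KO over WT ratios of 1.11 for Cd3d and 0.95 for Cd3g. Cd3e had 58 UMIs in KO and 16 in WT, and Trbc2 had 224 in KO and 67 in WT, which gave ratios of 2.15 (1.22 to 4.005) and 1.98 (1.50 to 2.64). Trac, Cd3d, Cd3g and Cd3e are genes of the member rule, so their values describe the selection and test nothing. Zap70 and Lck, the kinases that act directly below the receptor, were sparse, with 17 Zap70 UMIs in KO and 6 in WT, and 20 Lck UMIs in KO and 19 in WT. Receptor variable segments were rarely captured, with 4 UMIs of alpha segments in KO and 4 in WT, and 6 UMIs of beta segments in KO and 2 in WT, so clones cannot be followed. The gamma chain variable segment Trgv2 had 3 UMIs in 3 KO members and 0 in WT members.

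Coreceptors were captured in a minority of members. Cd4 was seen in 8 of 52 KO members (15.4%, 6.88 to 28.1) and 6 of 29 WT members (20.7%, 7.99 to 39.7). Cd8a or Cd8b1 was seen in 6 KO members (11.5%, 4.35 to 23.4) and 6 WT members (20.7%, 7.99 to 39.7). A single KO member held both, and 39 KO and 17 WT members held neither. No gamma delta T cell held a Cd8a or Cd8b1 UMI, and Cd4 was seen in none of them in KO and 1.61% in WT. After thinning, Cd4 was seen in 5.77% of KO and 10.3% of WT members, and Cd8a or Cd8b1 in 1.92% of KO and 13.8% of WT members. At these depths, a missing coreceptor UMI does not show that the cell lacked the coreceptor.

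The UMIs of 3 genes or gene groups, chosen by their values, split the members into sets that did not overlap. Foxp3 marked 4 KO and 5 WT members. Fcer1g marked 19 KO and 7 WT members, and Il17a, Il17f or Il22 marked 10 KO members and 0 WT members. The other 19 KO and 17 WT members held a UMI of none of these. No member held both Foxp3 and Fcer1g, and no member with an IL-17 or IL-22 transcript held either. The sets were small and chosen by their values, so few shared cells with Foxp3 would be expected in any case. Whether the lack of overlap exceeds chance was not tested.

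**Figure D2:**
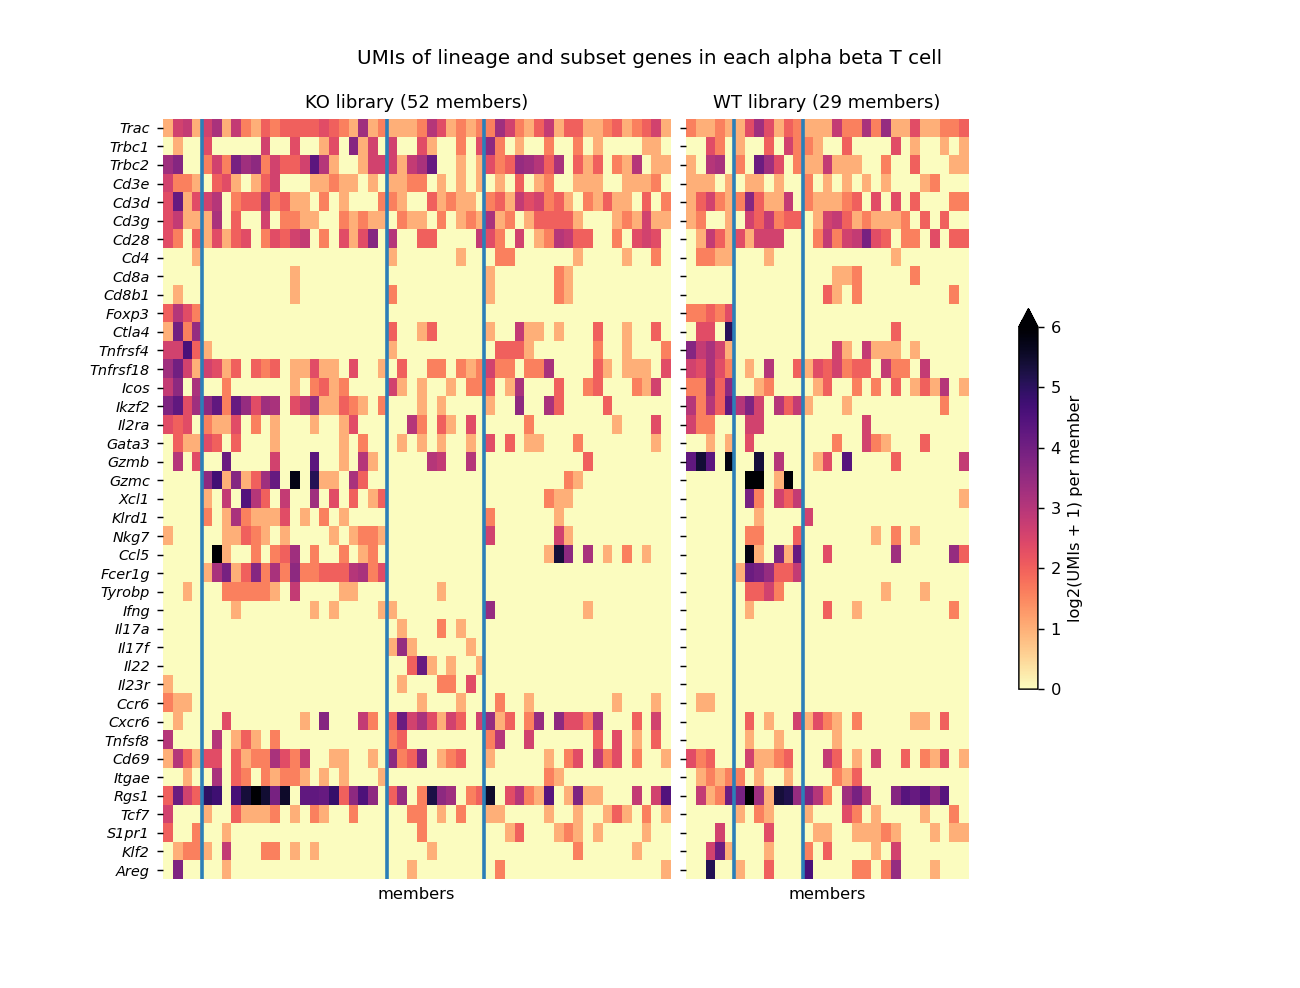
UMIs of 41 lineage and subset genes (rows) in every alpha beta T cell (columns), 52 of the KO library on the left and 29 of the WT library on the right, as log2(UMIs + 1). Blue lines part the members with Foxp3, those with Fcer1g, those with Il17a, Il17f or Il22 (KO only) and the rest, in that order. Tnfrsf4 was seen in every member of the Foxp3 block, Gzmc in 14 of 19 KO and 4 of 7 WT members of the Fcer1g block, and Cxcr6 in 9 of 10 members of the IL-17 and IL-22 block.

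The Foxp3 members of both libraries held further genes of regulatory cells. Foxp3 had 16 UMIs in KO and 13 in WT. All 4 KO and all 5 WT Foxp3 members held Ikzf2 (Helios, a transcription factor of regulatory cells), Tnfrsf4 (OX40) and Tnfrsf18 (GITR), the last of these being costimulatory receptors. Ctla4, an inhibitory receptor, was seen in 4 of 4 KO and 3 of 5 WT Foxp3 members, against 11 of 48 other KO members and 1 of 24 other WT members. Tnfrsf4 was seen in 9 of 48 other KO and 7 of 24 other WT members. Ikzf2 and Tnfrsf18 were common outside the set too, Ikzf2 in 24 of 48 other KO and 9 of 24 other WT members and Tnfrsf18 in 32 of 48 other KO and 14 of 24 other WT members. The KO Foxp3 members were deeper, with a median of 9632.5 UMIs against 4516 for the other KO members, while in WT the medians were 4600 and 5015. Cd4 was seen in 1 of the 4 KO and 4 of the 5 WT Foxp3 members. As shares of all members, Foxp3 cells were 7.69% in KO (2.14 to 18.5) and 17.2% in WT (5.85 to 35.8), and after thinning 3.85% in KO and 13.8% in WT, with overlapping intervals in both cases. Foxp3 was seen in 0.0311% of WT keratinocyte-gate barcodes and in none of KO.

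Foxp3 members of WT held more granzyme B transcript than those of KO. Gzmb encodes a serine protease of cytotoxic granules that activated regulatory cells can also make (chr14:56258838-56262260, minus strand). It was seen in 2 of 4 KO Foxp3 members with 7 and 4 UMIs. In WT it was seen in 4 of 5 Foxp3 members with 18, 41, 19 and 55 UMIs. These 4 WT cells held 133 of the 214 Gzmb UMIs of all WT members, while the KO Foxp3 members held 11 of 83. Over all members the level was 273 CPM in KO and 1189 CPM in WT, a KO over WT ratio of 0.23 (0.18 to 0.30). Without the Foxp3 members, chosen after seeing the data, the level was 271 CPM in KO and 532 CPM in WT, a ratio of 0.509 (0.365 to 0.708). Gamma delta T cells of the same libraries had 268 CPM of Gzmb in KO and 1016 CPM in WT.

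The Fcer1g members were the largest marked set, and coreceptor UMIs were seen in only 1 of them in each library. Fcer1g encodes the Fc receptor gamma chain, a signalling adaptor of natural killer and myeloid cells that some innate-like T cells also carry. Neither Cd4 nor Cd8 was seen in 18 of the 19 KO and 6 of the 7 WT Fcer1g members, against 75% of all KO and 58.6% of all WT members. Cd28 was seen in 15 of 19 KO and 5 of 7 WT, and Trbc1 or Trbc2 in 18 of 19 KO and 6 of 7 WT. Gamma chain constant transcripts were seen in 3 of the 19 KO and 1 of the 7 WT.

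The Fcer1g members also held most of the Gzmc and Xcl1 transcripts, but not of Gzmb in WT. Gzmc (granzyme C) was seen in 14 of 19 KO and 4 of 7 WT Fcer1g members, against 2 of 33 other KO and 0 of 22 other WT members. Xcl1, a chemokine that draws cross-presenting dendritic cells, was seen in 11 of 19 KO and 5 of 7 WT Fcer1g members, against 3 of 33 other KO and 1 of 22 other WT members. The set held 64 of the 68 Xcl1 UMIs of KO and 30 of the 31 of WT. Gzmc had 178 of its 181 UMIs in the Fcer1g members of KO and all 286 in those of WT. Ccl5, another chemokine, had 223 UMIs in them in KO, 199 of these in 1 cell, and 86 in WT. Outside the set Ccl5 had 64 UMIs in KO and 26 in WT, so in KO the larger part rests on that 1 cell. Gzmb had 49 of its 83 UMIs in the set in KO but 47 of 214 in WT. Ikzf2 was seen in 17 of 19 KO and 6 of 7 WT, while Ctla4 was seen in none of either library. Tyrobp, the adaptor DAP12, was seen in 9 of 19 KO and 4 of 7 WT. Klrd1 (CD94, a lectin-like receptor) was seen in 11 of 19 KO and 1 of 7 WT, and Itgae (CD103, which binds epithelial E-cadherin) in 11 of 19 KO and 3 of 7 WT. Ikzf2, Xcl1, Klrd1 and Itgae were not particular to the set. Among KO and WT gamma delta T cells, Ikzf2 was seen in 56.2% and 53.2%, and Xcl1 in 36.5% and 22.6%. Klrd1 was seen there in 25.6% and 24.2%, and Itgae in 33.5% and 27.4%. Gzmc (1.97% and 6.45%), Tyrobp (2.96% and 3.23%) and Ccl5 (3.45% and 1.61%) were rarer there. The Fcer1g members were deeper than the rest, with a median of 6112 UMIs in KO and 7320 in WT, against 4298 for the other KO members and 4507.5 for the other WT members.

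As a share of all members, Fcer1g cells were 36.5% in KO (23.6 to 51.0) and 24.1% in WT (10.3 to 43.5). After thinning the shares were 11.5% in KO and 13.8% in WT. Fcer1g was also seen in 6.24% of KO and 16.8% of WT keratinocyte-gate barcodes and in nearly all barcodes of a myeloid gate (96.9% in KO and 98.6% in WT). The member level of Fcer1g was below 20% of the myeloid level, the mark used here for possible free RNA (transcripts from lysed cells that enter droplets). The myeloid markers C1qa, C1qb, Cd14, Cd68, Csf1r, Fcgr3 and Lyz2 were seen in 5 of 52 KO and 14 of 29 WT members. Most of these UMIs lay in 1 Fcer1g cell of each library, KO member 6 with 51 of 58 and WT member 8 with 71 of 86, which also held 14 and 10 Fcer1g UMIs. In 2 KO and 2 WT Fcer1g members, the markers of one other cell type reached 0.5% of UMIs, myeloid in these cells, keratinocyte in KO member 1 and fibroblast in WT member 2. Without those 4 cells, left out after seeing the data, Gzmc was seen in 12 of 17 KO and 4 of 5 WT, Xcl1 in 9 of 17 KO and 5 of 5 WT, Klrd1 in 9 of 17 KO and 1 of 5 WT, and Itgae in 11 of 17 KO and 2 of 5 WT. Among gamma delta T cells, 57.1% in KO and 46.8% in WT held Fcer1g.

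Transcripts of IL-17 and IL-22 were seen in KO alone. Il17a was seen in 3, Il17f in 4 and Il22 in 5 KO members, and any of them in 10 of 52 (19.2%, 9.63 to 32.5). In WT it was 0 of 29, and with 3 counts as the floor a count of 0 allows up to 10.3% of cells with such a UMI, which is no limit on cells that express the genes. After thinning, 5 KO members (9.62%, 3.20 to 21.0) and 0 WT members (0 to 11.9) held one. The KO and WT intervals overlap with and without thinning, the WT interval being 0 to 11.9 in both cases. Il22 (chr10:118204942-118210047) had 23 UMIs in KO, 17 of them in 1 cell, and 0 in WT. With 3 counts as the floor for WT the KO over WT ratio was 4.54, and its exact interval began at 3.41. Without that 1 cell the ratio was 1.19, with an interval that began at 0.70. Il17f had 13 UMIs in KO, 10 of them in KO member 13, and Il17a had 4. KO member 27 held 1 Il17f UMI, and both of these members also held Tcrg-C2 UMIs.

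The gamma delta T cells gave the opposite order for these cytokines. Any of the 3 transcripts was seen in 24.6% of KO and 35.5% of WT gamma delta T cells, and Il22 stood at 114 CPM in KO and 1452 CPM in WT. The keratinocyte gate held one of them in 0.808% of KO and 0.964% of WT barcodes. Of the 10 KO members with such a transcript, 2 also held a gamma chain constant transcript, and 7 held Trbc1 or Trbc2. Trbc1 or Trbc2 was also seen in 77.3% of KO gamma delta T cells. Cd28 was seen in 4 of the 10, against 35 of all 52 KO members and 5.91% of KO gamma delta T cells. How many of the 10 are gamma delta cells whose Trdc was missed was not tested. Il23r, the receptor subunit for IL-23, was seen in 4 of the 10 and in 1 of the other 42 KO members, and in 0 of 29 WT members. Cxcr6 was seen in 9 of the 10.

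Interferon gamma and type 2 genes were sparse. Ifng was seen in 7 KO members (13.5%) and 4 WT members (13.8%). Tbx21, the transcription factor T-bet of type 1 cells, was seen in 3 KO and 4 WT members. Il13 was seen in 1 KO and 1 WT member, and Il4 in 0 of either, which by the same floor allows up to 5.77% of KO and 10.3% of WT members with a UMI. Gata3, which directs type 2 cells and is also made by keratinocytes, was seen in 36.5% of KO and 27.6% of WT members but in 54.8% of KO and 39.1% of WT keratinocyte-gate barcodes. After thinning, Gata3 was seen in 9.62% of KO and 3.45% of WT members, close to the 7.62% of KO and 4.60% of WT keratinocyte-gate barcodes.

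Rgs1 and Cd69 were seen in most members, while other genes of tissue residence were seen in a minority. Rgs1, a G protein regulator of lymphocytes retained in tissue, was seen in 41 KO (78.8%) and 23 WT members (79.3%). It was also seen in 94.6% of KO and 98.4% of WT gamma delta T cells and in 58.6% of KO and 65.3% of WT barcodes of the myeloid gate. Cd69, which keeps T cells in tissue, was seen in 33 KO (63.5%) and 17 WT members (58.6%), and after thinning in 28.8% of KO and 24.1% of WT members. Itgae was seen in 26.9% of KO and 34.5% of WT members, and Itga1, an integrin alpha chain of resident T cells, in 5.77% of KO and 3.45% of WT members. S1pr1, the receptor by which T cells leave tissue, was seen in 11 KO (21.2%, 11.1 to 34.7) and 12 WT members (41.4%, 23.5 to 61.1). Only 1 of 19 KO and 1 of 7 WT Fcer1g members held S1pr1. Ccr7 was seen in 4 members of each library. A proliferation transcript, Mki67 or Top2a, was seen in 8 KO (15.4%) and 4 WT members (13.8%).

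**Figure D3:**
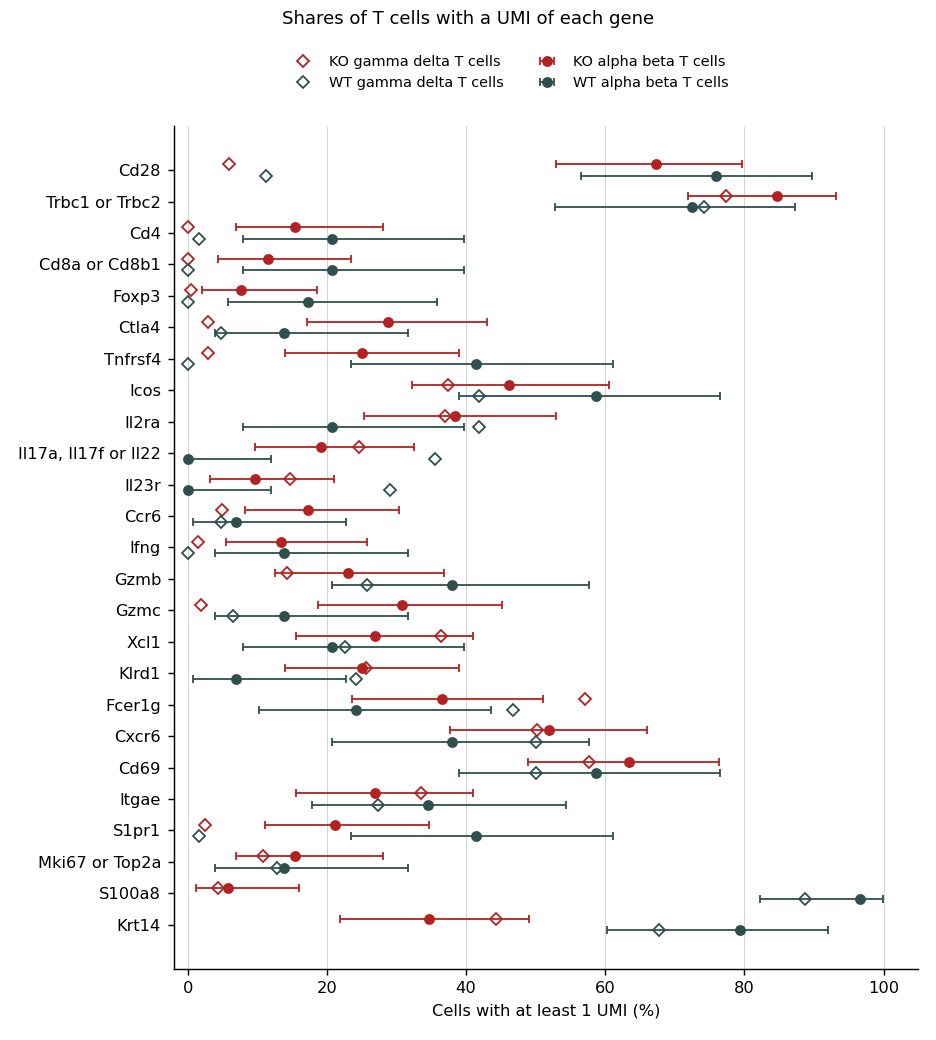
Shares of cells with at least 1 UMI of each gene or gene group (x axis, percent, not thinned) in alpha beta T cells (filled circles with exact 95% intervals) and gamma delta T cells (open diamonds), for the KO and WT libraries. Cd28, Cd4, Cd8 and Foxp3 set the alpha beta cells apart from the gamma delta cells in both libraries. S100a8, a keratinocyte and neutrophil gene, was seen in 5.77% of KO and 96.6% of WT members.

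The members' RNA was next summed per library and compared gene by gene. Of 3336 genes with at least 20 UMIs over both libraries, 192 were 2-fold or more higher in KO (5.76%) and 140 were 2-fold or more lower in KO (4.2%), each with an interval that left out 1. The median log2 ratio of all measured genes was 0.15. Scaling by the median ratio over genes removed that shift of 0.15 and gave 124 higher and 182 lower genes, so the balance between the directions depends on the scaling.

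The 2 directions did not rest on the same number of cells. A gene higher in KO was seen in a median of 19 of the 52 KO members, and 9 of the 192 had most of their KO UMIs in 1 barcode. A gene lower in KO was seen in a median of 8 of the 29 WT members, and 56 of the 140 had most of their WT UMIs in 1 barcode. Part of the gap between these medians comes from the smaller number of WT members. When the highest barcode of each gene was left out, chosen after seeing the data, 92 of the 192 higher and 35 of the 140 lower genes remained past 2-fold. Of these 35, 10 were marked as possible free RNA, and of the 92, none was.

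**Figure D4:**
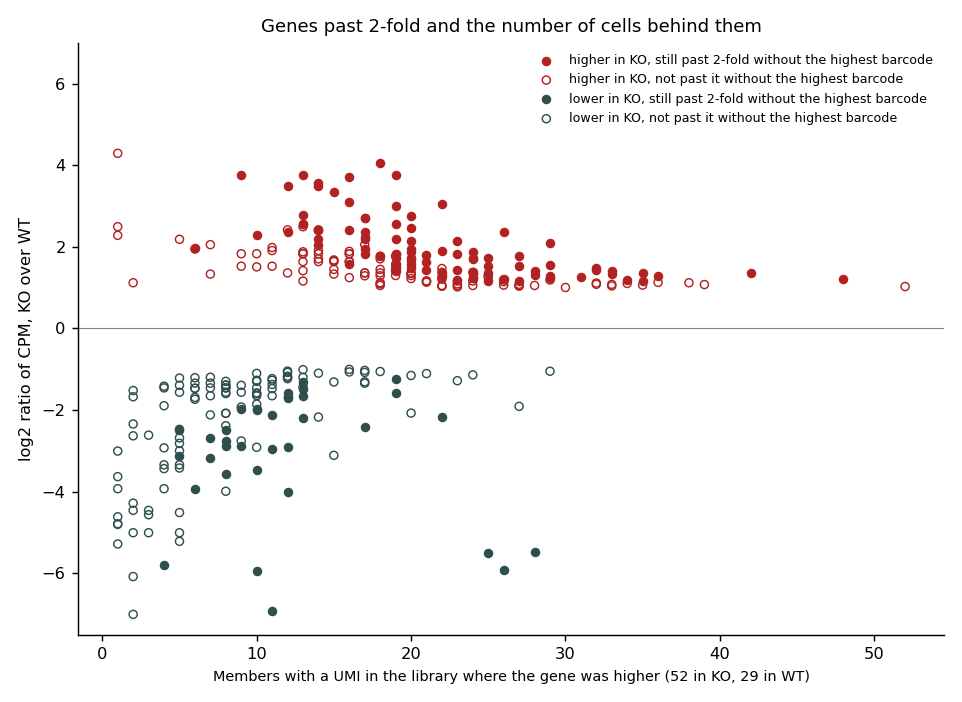
Log2 ratio of CPM, KO over WT (y axis), against the number of members with a UMI in the library where the gene was higher (x axis), for the 192 higher and 140 lower genes. Filled points stayed past 2-fold when the highest barcode of the gene was left out, and open points did not. Many lower genes on the left of the plot rest on a few WT barcodes.

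Cxcr6, Tnfsf8, Spry2 and Trf were among the genes that the naming rule put first as higher in KO. Cxcr6, the receptor for CXCL16 that marks skin-homing and resident T cells (chr9:123806475-123811760), had 139 UMIs in 27 KO members and 24 UMIs in 11 WT members. This was 458 CPM in KO and 133 CPM in WT, a ratio of 3.43 (2.22 to 5.54). Without the members that held an IL-17 or IL-22 transcript the ratio was 2.57 (1.62 to 4.23). In gamma delta T cells the order was the other way, with 764 CPM in KO and 1145 CPM in WT.

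Tnfsf8, the ligand of CD30 (chr4:63831308-63861347), had 51 UMIs in 15 KO members and 3 UMIs in 3 WT members, a ratio of 10.1 (3.26 to 50.5). No KO cell held more than 7 of them. In gamma delta T cells Tnfsf8 had 32.1 CPM in KO and 0 in WT. Spry2, a feedback inhibitor of receptor tyrosine kinase signalling, had 68 UMIs in 20 KO members and 6 in 4 WT members, a ratio of 6.72 (2.93 to 19.0). Trf, the iron carrier transferrin, had 68 UMIs in 19 KO members and 3 in 3 WT members, a ratio of 13.4 (4.41 to 66.8). In gamma delta T cells Spry2 stood at 250.0 CPM in KO and 199.6 CPM in WT, and Trf at 201 CPM in KO and 101 CPM in WT.

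The remaining genes that the naming rule put first had at most 2 UMIs in WT. Rfx7, a transcription factor, had 28 UMIs in 18 KO members and 1 in WT, and Ralgapb, a subunit of a Ral GTPase-activating complex, had 22 in 16 KO members and 1 in WT. Kit, the stem cell factor receptor and a mast cell gene, had 23 UMIs in 9 KO members and 1 in WT, while the mast cell genes Cpa3 and Cma1 were at 0 in both libraries. Mcpt4, the other mast cell gene listed, was at 0 in KO members but not in WT members. In gamma delta T cells Kit had 32.1 CPM in KO and 43.0 CPM in WT. Slc15a3, a lysosomal peptide transporter, had 23 UMIs in KO and 1 in WT. Snapc5 had 28 in KO and 2 in WT, Mapk1ip1l had 27 in KO and 2 in WT, and Ccdc184 had 20 in KO and 0 in WT. The ratios of these low genes have wide intervals, such as 2.74 to 679 for Rfx7.

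Several more abundant genes, chosen after their values were seen, were higher in KO by about 2- to 3-fold with or without their highest barcode. Ostf1 had 462 UMIs in 48 KO members and 119 in 24 WT members, a ratio of 2.30 (1.88 to 2.84), and 2.13 without the highest barcode. Anp32a had 208 UMIs in 42 KO members and 48 in 19 WT members, a ratio of 2.57 (1.87 to 3.59). Rbpj, the DNA-binding partner of Notch, had 79 UMIs in 29 KO members and 16 in 10 WT members, a ratio of 2.93 (1.70 to 5.37). Bcl10, which links the T cell receptor to NF-kappa B, had 54 UMIs in 33 KO members and 12 in 9 WT members, a ratio of 2.67 (1.41 to 5.48). Fyn, a kinase of the receptor complex, had 41 in 23 KO members and 9 in 7 WT members, a ratio of 2.70 (1.29 to 6.32).

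Most of the genes that the naming rule put first as lower in KO came from single WT barcodes. WT member 2, the second by UMIs with 12629, held 206 of the 217 Saa3 UMIs, 62 of 65 of Rarres2, 39 of 42 of Csf3, 26 of 33 of Il6 and all 22 of Cpxm1. Saa3 is an acute phase gene and Csf3 encodes the granulocyte growth factor. WT member 5, with 8544 UMIs, held 75 of 76 UMIs of Gdf15, 36 of 38 of Fabp4, all 33 of Tm4sf1, all 27 of Igfbp5 and all 23 of Prox1, a lymphatic endothelial transcription factor. Both of these members held 1 Trac UMI and 2 CD3 UMIs, the least the rule admits. WT member 8 held all 49 Il1b UMIs. KO members held 5 UMIs of Rarres2, 2 each of Fabp4 and Tm4sf1, 1 each of Gdf15, Il6 and Prox1, and 0 of Saa3, Csf3, Cpxm1, Igfbp5 and Il1b.

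Fos, an immediate early transcription factor, had 66 UMIs in 28 KO members and 337 in 15 WT members. WT member 3, a Foxp3 cell, held 299 of the 337, and without it the log2 ratio went to 0.042. Leaving out the 3 WT members in which markers of other cell types made up 1% or more of UMIs (0 such members in KO) gave 116 lower and 173 higher genes.

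Markers of other skin cells summed to higher levels in WT members, and single barcodes held most of these sums in WT. Keratinocyte markers summed to 932 CPM in KO members and 2646 CPM in WT members, and fibroblast markers to 39.5 CPM in KO and 1340 CPM in WT, with Col1a1 and Lum at 0 in KO. Myeloid markers summed to 191 CPM in KO and 478 CPM in WT, endothelial markers to 36.2 CPM in KO and 222 CPM in WT, and haemoglobin to 0 in KO and 133 CPM in WT. In WT, 1 member held 280 of 476 keratinocyte UMIs, another 226 of 241 fibroblast, another 71 of 86 myeloid, another 37 of 40 endothelial and another 22 of 24 haemoglobin UMIs. In KO, 1 member held 178 of 283 keratinocyte and another 51 of 58 myeloid UMIs. Without the highest member of each library, chosen after seeing the data, keratinocyte markers were at 387 CPM in KO and 1247 CPM in WT, fibroblast markers at 33.4 CPM in KO and 89.7 CPM in WT, and myeloid markers at 23.8 CPM in KO and 86.9 CPM in WT. Endothelial markers then turned, with 27.7 CPM in KO and 17.5 CPM in WT. S100a8 and S100a9 were spread thinly over nearly all WT members. S100a8 had 3 UMIs in 3 KO members and 79 UMIs in 28 WT members, at most 7 in any cell. The fibroblast gate held S100a8 in 5.23% of KO and 84.2% of WT barcodes. The part of this RNA in the lower genes was not tested beyond the values given here.

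Some genes lower in KO were neither marked as possible free RNA nor held by 1 barcode. Gzmb, given above, had a ratio of 0.31 (0.23 to 0.41) without its highest barcode. Smad7, an inhibitor of TGF-beta signalling, had 43 UMIs in 28 KO members and 60 in 19 WT members, a ratio of 0.42 (0.28 to 0.64), and 0.49 without the highest barcode. Mt2, a metallothionein, had 147 UMIs in 36 KO members and 392 in 22 WT members, a ratio of 0.22 (0.18 to 0.27), and 0.44 without a WT barcode that held 194 of them. Smad7 and Mt2 were chosen after their values were seen. Areg, an epidermal growth factor receptor ligand of regulatory and tissue-repair T cells, had 18 UMIs in 5 KO members and 78 in 9 WT members. Its ratio was 0.14 (0.08 to 0.23), and 0.24 without the highest barcode. Of the 78 WT UMIs, 34 lay in WT member 16, a Foxp3 cell, and 23 in WT member 1. WT member 1 also held 280 of the 476 keratinocyte marker UMIs of WT members. In gamma delta T cells Areg was seen in 44.3% in KO and 33.9% in WT. Areg was also seen in 44.3% of KO and 39.8% of WT keratinocyte-gate barcodes, against 9.62% of KO and 31.0% of WT members. After thinning, Areg was seen in 3.85% of KO and 17.2% of WT members, against 11.3% of KO and 13.0% of WT keratinocyte-gate barcodes.

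The gene lists give the wider picture against the background of 5.76% higher and 4.2% lower. Of 9 measured IL-17-type genes, 4 were higher in KO (Il22, Cxcr6, Aqp3 and Serpinb1a) and 0 lower, with a median log2 ratio of 0.98 (0.03 to 2.05), against 0.15 for all genes, a value inside that interval. Without the highest barcode of each gene only Cxcr6 remained past 2-fold, with ratios of 1.19 for Il22, 0.89 for Aqp3 and 1.86 for Serpinb1a. In gamma delta T cells the summed level of the list was 2863 CPM in KO and 5379 CPM in WT, against 2362 CPM in KO and 1312 CPM in WT for the alpha beta cells. The list median was 0.44 when the highest barcode of each gene was left out and 0.36 when every cell had equal weight. Aqp3, a water and glycerol channel, had 20 of its 26 KO UMIs in 1 cell and was marked as possible free RNA. Of 13 measured resident or retained T cell genes, Cxcr6 was higher and none lower (median 0.01). Of 8 chemokine receptor genes, Cxcr6 alone passed (median 0.36).

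Regulatory T cell genes showed 0 of 14 higher and 1 lower, Areg, with a median log2 ratio of -0.21. Of 11 type 1 and cytotoxic genes, Klrd1 and Ccl4 were higher and Gzmb and Gzmc lower (median 0.59). Klrd1 had 27 UMIs in 13 KO members and 6 in 2 WT members, a ratio of 2.67 (1.08 to 7.90). Without its highest barcode the Klrd1 ratio was 1.88 (0.72 to 5.74). Ccl4 had 32 of its 33 KO UMIs in 1 cell. Gzmc had 181 UMIs in 16 KO members and 286 in 4 WT members, a ratio of 0.38 (0.31 to 0.45), and 0.72 without a WT cell that held 136 of them. Of 12 cytokine genes, Tnfsf8, Il22, Ccl4 and Ltb were higher and Csf1 and Areg lower (median 0.41). Ltb (lymphotoxin beta) had 63 UMIs in 20 KO members and 16 in 6 WT members, a ratio of 2.33 (1.33 to 4.33), and 1.82 without its highest barcode. Without the highest barcode of each gene, only Gzmb remained past 2-fold in the cytotoxic list, and only Tnfsf8 and Areg in the cytokine list.

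Immediate early and heat shock genes, which many stimuli induce within minutes, were the list with most lower members. Of 28 measured, 11 were lower in KO (Ier3, Egr1, Fos, Fosb, Hspa1a, Hspa1b, Dnajb1, Atf3, Jun, Dusp1 and Zfp36) and 0 higher, with a median log2 ratio of -0.65. Egr1 had 33 UMIs in 21 KO members and 151 in 11 WT members, a ratio of 0.13 (0.09 to 0.19). Without the highest barcode of each gene, Ier3, Egr1 and Hspa1a remained past 2-fold, so 8 of the 11 did not, and the median was -0.21. It was -0.18 over the 18 genes measured after thinning. In gamma delta T cells the summed level of these genes ran the other way, with 20948 CPM in KO and 16695 CPM in WT, against 14814 CPM in KO and 20421 CPM in WT for the alpha beta cells.

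The other lists held few genes past 2-fold. Of 15 MHC class I and antigen processing genes, H2-Q6 and H2-T23 were higher and none lower (median 0.40). H2-K1, the most abundant, had 2844 CPM in KO and 1912 CPM in WT, a ratio of 1.49 (1.31 to 1.69). After thinning the median of this list turned to -0.13. H2-Q6 is one of several closely similar genes whose reads counting may split, and its value is uncertain for that reason. Of 11 interferon-stimulated genes, 0 were higher and Irf1 and Ly6c2 lower (median -0.17). Of 20 cytokine receptor and feedback genes, Socs3 and Ifnar2 were lower (median 0.00). Of 8 naive and recirculating genes, Klf2 was lower (median -0.18), and of 5 type 2 genes, Areg was lower (median -0.52). Tnfsf8 was the 1 higher gene among 14 activation and checkpoint genes (median -0.09) and Gpi1 the 1 among 12 glycolysis and hypoxia genes (median -0.07). Cd3e, a gene of the member rule, was the 1 among the 21 receptor complex genes (median -0.08), so that call tests nothing. None of 11 cell cycle genes (median 0.20), 23 adhesion and cytoskeleton genes (median 0.20) or 9 innate-like genes (median -0.02) passed in either direction. Of the genes named in this paragraph, H2-Q6, Tnfsf8 and Areg still passed without the highest barcode of each gene. The calls of H2-T23, Irf1, Ly6c2, Socs3, Ifnar2, Klf2, Gpi1 and Cd3e did not.

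**Figure D5:**
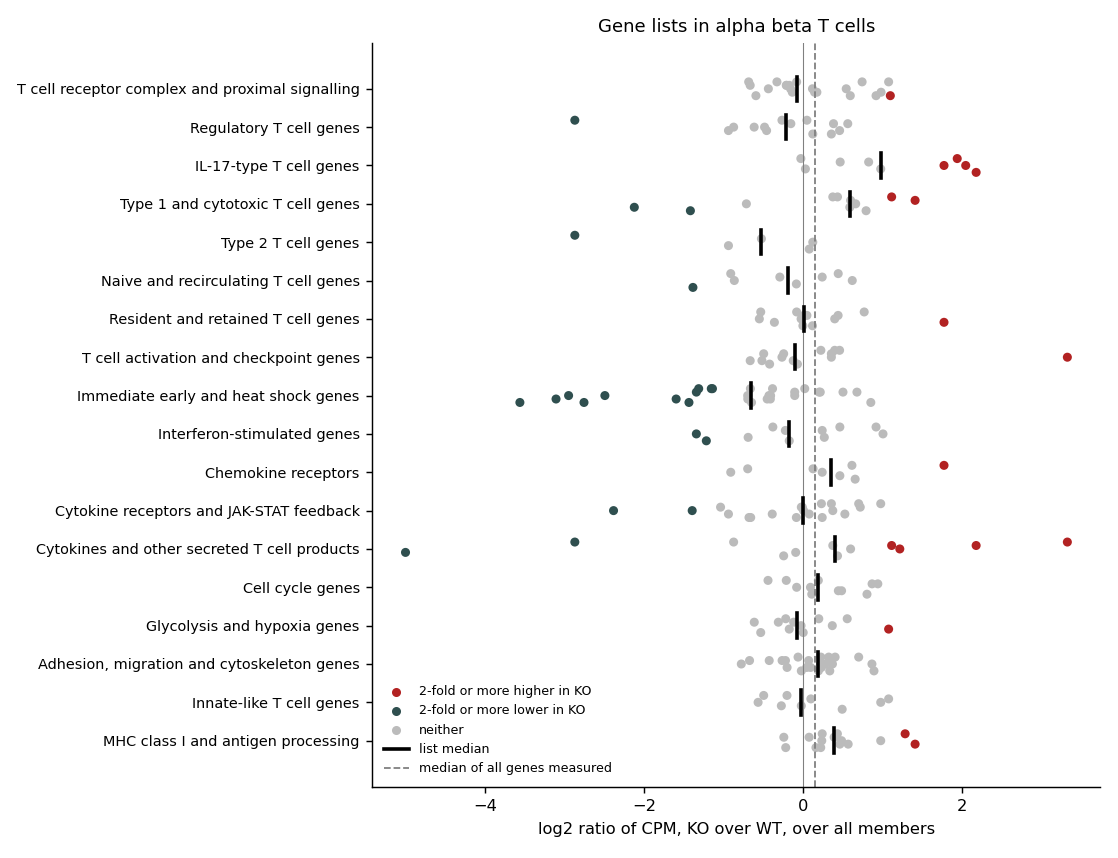
Log2 ratios of CPM, KO over WT (x axis), of every measured gene of 18 lists in the alpha beta T cells. Red points were 2-fold or more higher and dark points 2-fold or more lower in KO, black bars are list medians and the dashed line is the median of all genes measured (0.15). The IL-17-type list lies to the right with a median of 0.98 and the immediate early and heat shock list to the left with -0.65.

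Of 26 nicotinic receptor and cholinergic genes, 25 had 0 UMIs in the members. Chrne, the epsilon subunit of the muscle nicotinic receptor, had 10 UMIs in KO and 7 in WT. At this depth no difference in nicotinic receptor genes between KO and WT alpha beta T cells was detectable.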

How the data were processed

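Barcode, gene and matrix files of 2 droplet libraries were used, 1 per genotype. As deposited, the values are whole-number UMI counts, not normalized, per the file headers. The submitters' processing notes name Cell Ranger 3.0.2, Seurat 3.0 and mm10, while the matrix header gives software 3.1.0. The table holds 31053 genes.

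Counts were summed over members and scaled to their total (CPM). The KO over WT ratio has an exact 95% interval given the sum of both counts, and shares have Clopper-Pearson intervals. A library at 0 UMIs was set to a floor of 3 counts. Past the fold means 2-fold or more, an interval that leaves out 1, and at least 20 UMIs over both libraries. Gates for other cell types took barcodes with marker UMIs of at least 0.5%. Possible free RNA means a member CPM under 20% of that of the highest gate. Cells were thinned to 1000 UMIs. No doublet caller was run. An alternative left out members with 1% or more of UMIs in other types' markers.

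The first 12 genes each way by the interval bound nearest 1 were named, at 50 CPM or more, without mitochondrial, ribosomal, haemoglobin, receptor segment, sex-linked marker and unnamed genes or possible free RNA. From each list the most abundant member and the most changed ones were added. The members and the 19 lists were chosen with earlier results of these data known. A few genes of these lists are not reported here. On simulated counts for 3336 genes, 96.7% of intervals of unchanged genes held the true ratio. All genes raised 4-fold and 51% of genes lowered 4-fold were found, and 1.82% of unchanged genes were called. The simulated counts were Poisson draws from a profile pooled over both libraries, without variation between cells, mixed barcodes or free RNA. These rates therefore do not apply to genes held mostly by 1 barcode. Python 3.11.15, numpy 2.4.6, scipy 1.17.1 and pandas 2.3.3 were used.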

Additional observations from a re-analysis of the deposited data

How the results depend on the processing

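No paired analysis was possible because each genotype is 1 library and no test was made. The share of alpha beta T cells kept its direction under every alternative except the rule applied after thinning, where it was 0.0104% in KO (1 cell) and 0.0172% in WT (2 cells), a ratio of 0.605. With 2 Trac UMIs the share was 0.364% in KO and 0.146% in WT, and no Foxp3 in KO members and no Cd4 in WT members was then seen in thinned counts (0% each). Without thinning, Cd8a or Cd8b1 was seen in 11.5% of KO members. The number of genes higher in KO was 124 with median-ratio scaling, 20 after thinning and 102 without the highest barcode of each gene. The number lower was 15 after thinning, 222 with at least 10 UMIs, 342 with no filter, 93 with 2 Trac UMIs and 42 without the highest barcode.

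The median of the MHC class I list turned to -0.13 after thinning. Single genes that turned after thinning had few UMIs left, with log2 ratios of -2.43 for Aqp3, -0.11 for Ccdc184, 0.74 for Cpxm1 and Tm4sf1, -0.33 for H2-Q6, -0.43 for H2-T23, Kit, Mapk1ip1l and Rfx7, -0.84 for Il22 and Slc15a3, and 0.051 for Jun. Without the highest barcode, Aqp3 turned to -0.17, Ccl4 to -3.92, Fos to 0.042 and Ly6c2 to 0.25. With 2 Trac UMIs, Csf3 and Gdf15 turned to 0.38. The 2 libraries and 81 cells limit every comparison, and the self-test found only 51% of genes lowered 4-fold.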
